A study of Homo sapiens with 4 samples.

Results

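The genes described here encode the integrins and the laminins, the receptors and the matrix proteins through which epithelial cells hold on to a basement membrane. They are the protein-coding rows whose symbol starts with ITGA or ITGB, without 4 genes that only carry the name (ITGB1BP1, ITGB1BP2, ITGB3BP and ITGBL1), together with the laminin chain genes, named LAMA, LAMB or LAMC and a number. This gave 38 of the 58735 genes in the count table: 18 integrin alpha, 8 integrin beta and 12 laminin chain genes. The rule used the names only, not the values, but it was set with earlier results of these data known.

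An integrin is a pair of one alpha and one beta subunit that crosses the plasma membrane. The alpha subunit largely sets which ligand is bound, and the beta tail connects to actin through talin and kindlin, except for the beta4 tail, which connects to keratin filaments through plectin in hemidesmosomes. A laminin is a trimer of one alpha, one beta and one gamma chain. Laminin-332, which holds the products of LAMA3 and LAMB3, is a ligand of the alpha3beta1 and alpha6beta4 integrins in epithelia, whereas laminin-511 is made of the products of LAMA5, LAMB1 and LAMC1.

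The study compared A549 cells with a guide against UHRF1 (genotype UHRF1 KO, 2 libraries) with A549 cells with a non-targeting guide (control, 2 libraries). A549 is an established line from a human lung adenocarcinoma, and UHRF1 recruits the maintenance DNA methyltransferase DNMT1 to newly replicated DNA. All 4 cultures had received the guide in the lentiviral vector lentiCRISPRv2-hygro and had been selected with hygromycin, so the controls carry the vector and the drug selection too. The labels do not tell pools from clones, nor how many guides were used or how long after infection RNA was taken. They also do not say that replicate libraries stem from different cultures, and the p-values then reflect only the spread of these libraries, which could be technical.

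Total counts ran from 18604598 to 23977168 per library, and more genes had at least 1 count in the UHRF1 KO libraries (28486 and 29341) than in the control libraries (24600 and 24504). Levels are CPM (counts scaled to a fixed library total) after scaling by the trimmed mean of M values (TMM), so that 1 count is worth between 0.0402 and 0.0561 CPM. UHRF1 RNA was at 97.6 and 98.9 CPM in the controls and at 39.1 and 40.2 CPM in the UHRF1 KO libraries, 2.47-fold lower (edgeR quasi-likelihood test, adjusted p = 3.92e-20), as the labels have it. The RNA level says nothing of the UHRF1 protein that remained. Of the epithelial markers, KRT8, KRT18 and KRT7 were abundant in every library, whereas EPCAM was low in the controls, at 2.21 ± 0.83 CPM (SD, n = 2), against 9.98 ± 1.09 CPM (SD, n = 2) in the UHRF1 KO libraries.

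The DNA before the start of LAMA4, LAMB3 and ITGA5, which rose strongly, is shown first, because CpG pairs, the sites at which DNA methylation is maintained, are what these sequences can show; methylation itself was not analysed here. Sequences are from RefSeq (build GRCh38.p14), written 5′ to 3′ on the strand of the gene, with each CpG in capitals. Of the 38 genes, 26 matched a RefSeq start, with 33 start windows. Only the bases that lie outside all annotated exons (GENCODE release 29) are printed. The 63 bases of LAMA4, chr6:112254723-112254785 on the minus strand, lie within the gene, since its RefSeq start is 372 bases downstream of the first GENCODE start. The 209 bases of LAMB3 (chr1:209652467-209652675, minus strand) and the 56 bases of ITGA5 (chr12:54419461-54419516, minus strand) end just before the first annotated base of each gene. LAMC1 (chr1:183023170-183023419, plus strand) is shown for contrast and was chosen after its values were seen; it is an abundant laminin chain gene that moved little.
LAMA4: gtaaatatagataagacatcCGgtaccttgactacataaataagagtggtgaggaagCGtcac
LAMB3: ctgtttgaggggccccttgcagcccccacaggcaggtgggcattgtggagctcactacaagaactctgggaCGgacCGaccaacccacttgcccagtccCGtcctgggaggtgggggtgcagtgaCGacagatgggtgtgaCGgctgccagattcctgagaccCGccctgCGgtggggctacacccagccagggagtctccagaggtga
ITGA5: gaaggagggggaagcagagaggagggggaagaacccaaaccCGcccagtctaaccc
LAMC1: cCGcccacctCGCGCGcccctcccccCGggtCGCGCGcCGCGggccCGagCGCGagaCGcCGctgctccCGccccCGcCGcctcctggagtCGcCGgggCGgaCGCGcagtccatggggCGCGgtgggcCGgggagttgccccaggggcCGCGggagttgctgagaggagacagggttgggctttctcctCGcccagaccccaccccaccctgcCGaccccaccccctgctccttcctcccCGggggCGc

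In the 250 bases before the RefSeq start, LAMA4 had 5 CpG pairs, LAMB3 had 8 at its most upstream start (10 and 3 at the others) and ITGA5 had 12, while LAMC1 had 32. The median over all 35116 start windows of the same length was 11, with quartiles of 3 and 23. ITGA2 and ITGB8, which also rose more than 2-fold, had 26 and 21, and ITGB6, which fell, had 0. ITGA1 and LAMB1, which moved little, had 16 and 28. These genes were picked for description, and whether the number of CpG pairs goes with the change was not tested. Motifs of AP-1, TEAD and NF-kB were looked for on both strands of the same windows. The AP-1 motif TGANTCA, which equals its own reverse complement, was in 6.57% of all windows and in 2 of the 33 windows here, those of LAMA3 and of an inner start of LAMB3. The TEAD motif GGAATG was in 11.9% of all windows and in 4 windows here, of ITGA10, ITGA5, ITGB1 and LAMA2. The NF-kB motif was in 1.73% of all windows and in 0 here. A match is a run of letters and no evidence of binding. The LAMB3 window with the AP-1 letters (in capitals here) lies within the gene at chr1:209651395-209651624, on the minus strand, of which the 230 bases outside exons read as follows.
LAMB3 inner start: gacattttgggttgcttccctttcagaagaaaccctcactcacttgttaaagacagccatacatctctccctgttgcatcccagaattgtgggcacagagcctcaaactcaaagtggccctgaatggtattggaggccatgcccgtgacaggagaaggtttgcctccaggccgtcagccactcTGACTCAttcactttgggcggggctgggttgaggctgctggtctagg

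Integrin and laminin genes were mostly higher in UHRF1 KO cells, and the laminin-332 chain gene LAMB3, the rare laminin alpha chain gene LAMA4 and the fibronectin receptor gene ITGA5 were among those with the largest rises. Of the 38 genes, 32 had enough counts to be tested, and 22 of these were higher, 3 were lower and 7 did not pass the test (edgeR quasi-likelihood test, adjusted p under 0.05 over all genes). ITGB7, among the 22, passed the filter on low counts only through the UHRF1 KO libraries, so it could not have been called lower. Over all 17030 genes tested, 62.0% were called in either direction, 32.0% higher and 30.1% lower. On the log2 scale, the median change (UHRF1 KO against control) was 0.50 over the 32 tested genes and 0.02 over all genes tested. The groups did not overlap for 24 of the 25 called genes, ITGAM being the exception; the same held for 99.8% of all called genes.

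At least a 2-fold rise was found for 12 of the 32 genes, against 15.4% of all genes tested. Many of the large rises in the whole data set were in genes of very few counts, so abundant genes were also read apart. Of the 20 integrin and laminin genes of at least 10 CPM on average, 16 were higher and 2 lower. Among protein-coding genes of at least 10 CPM, 27.1% were higher, 44.1% were lower and 4.74% were at least 2-fold higher. In that class of genes lower calls were the more frequent ones, which was not the case among the integrins and laminins. The 12 genes with at least a 2-fold rise include genes under 10 CPM, so their background is the 15.4% and not the 4.74%.

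**Figure D1:**
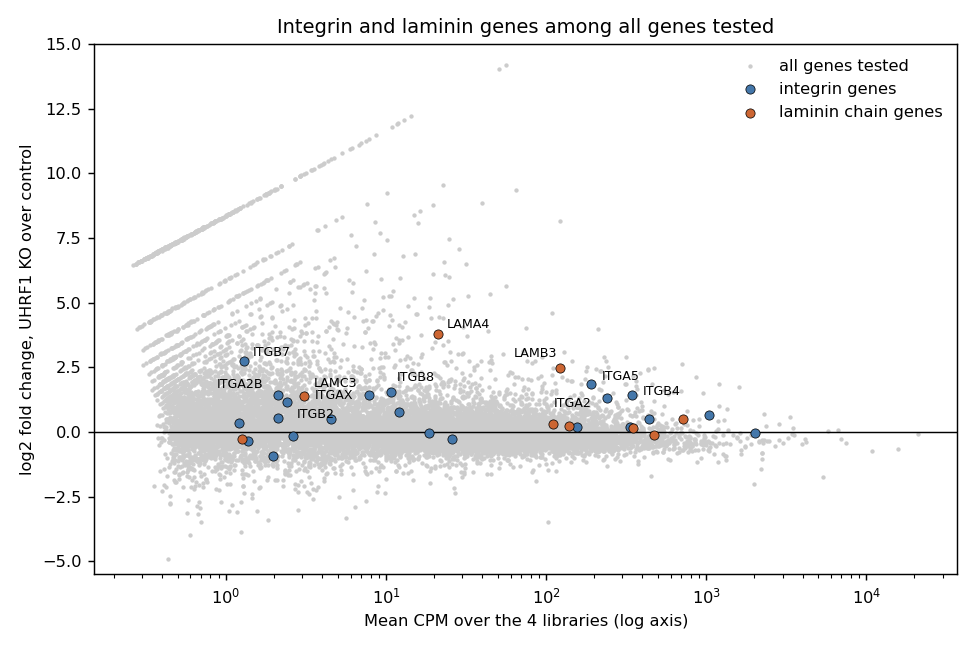
Log2 fold change of every tested gene (UHRF1 KO over control, vertical axis) against its mean CPM over the 4 libraries (log axis), with integrin genes in blue, laminin chain genes in orange and all genes tested in grey; genes with a log2 change of at least 1 in size are named. LAMB3, ITGA5, ITGB4 and ITGA2 lie above most genes of similar level, and only ITGB6, at a low level, lies well below 0.

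These calls rest on TMM scaling, which left the median gene near 0. When trends with GC content and exon length were removed and each library was recentred on its mean, the median gene shifted by -0.28 on the log2 scale, and the calls over all genes went from 5445 higher and 5118 lower to 3544 higher and 8221 lower. The integrins and laminins then had 16 higher and 7 lower calls in place of 22 and 3. The 14 genes that were at least 1.5-fold higher were all still called higher, while of the 8 smaller rises only those of ITGAV and LAMA5 were. The called changes under 1.5-fold are therefore given below with their recentred values.

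**Figure D2:**
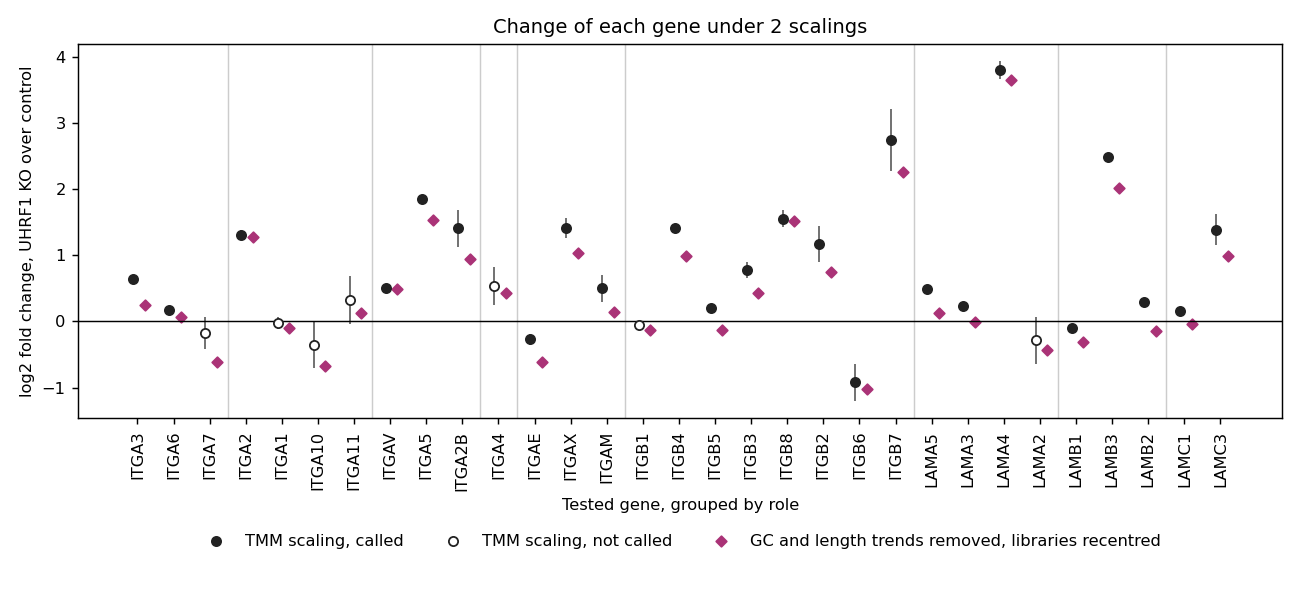
Log2 fold change (UHRF1 KO over control) of 31 tested genes, grouped by role; circles are the values under TMM scaling with bars of 1 standard error, filled where the test was passed, and diamonds are the values with GC and length trends removed and libraries recentred. LAMA4, LAMB3 and ITGA5 stay far above 0 under both scalings, while LAMA3, LAMB2, LAMC1 and ITGB5 cross to below 0.

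Among the laminin alpha chains, LAMA4 rose from a low level, the abundant LAMA5 rose less and LAMA3 changed little. LAMA4 (ENSG00000112769, chromosome 6, 112108760 to 112254939) encodes the alpha4 chain, typical of vessel and muscle basement membranes. It was at 1.96 and 3.61 CPM in the controls and at 40.9 and 37.5 CPM in the UHRF1 KO libraries. The groups lay far apart, and the fold change of 14.0 (log2 3.80, SE 0.14, edgeR adjusted p = 5.74e-21) was the largest of all tested integrin and laminin genes. The controls held only 35 and 67 counts, and the log2 change was 3.42 without control replicate 1 and 4.29 without control replicate 2.

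LAMA5 (ENSG00000130702), the alpha chain of laminin-511, was at 597 and 596 CPM in the controls and at 838 and 846 CPM in the UHRF1 KO libraries. Its replicates were close and its rise was 1.41-fold (log2 0.50, SE 0.03, edgeR adjusted p = 4.35e-15), or 0.12 on the log2 scale after recentring. LAMA3 (ENSG00000053747), the alpha chain of laminin-332, was at 124 and 132 CPM against 154 and 146 CPM. That 1.17-fold rise (edgeR adjusted p = 5.19e-05) did not hold after recentring, which put the log2 change at -0.01 (adjusted p = 0.778). LAMA2, the merosin chain of muscle, was close to 1 CPM in every library and did not pass the test (log2 -0.29, edgeR adjusted p = 0.508), and LAMA1 had 0 and 1 counts in the controls and 5 and 6 in the UHRF1 KO libraries, too few to test.

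Of the laminin beta chains, that of laminin-332 rose, while that of laminin-511 changed little. LAMB3 (ENSG00000196878, chromosome 1, 209614870 to 209652466) was at 36.8 and 37.6 CPM in the controls and at 206 and 210 CPM in the UHRF1 KO libraries. Its replicates were tight and far apart between the groups, with a 5.59-fold rise (log2 2.48, SE 0.05, edgeR adjusted p = 3.65e-29).

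LAMB1 (ENSG00000091136) was at 491 and 491 CPM in the controls and at 469 and 447 CPM in the UHRF1 KO libraries. This was the smallest called change, 1.07-fold lower (log2 -0.10, SE 0.03, edgeR adjusted p = 0.0102). It was not called with GC and length trends removed (edgeR adjusted p = 0.861). Without UHRF1 KO replicate 2 the log2 change was -0.07. After recentring it was -0.31 (adjusted p = 1.24e-12). LAMC1 (ENSG00000135862) was at 332 and 331 CPM against 368 and 370 CPM, 1.11-fold higher (edgeR adjusted p = 3.03e-04), and at -0.03 on the log2 scale after recentring (adjusted p = 0.38). LAMB2 (ENSG00000172037), found in laminin-521, was at 101 and 98.0 CPM against 120.2 and 122 CPM, 1.22-fold higher (edgeR adjusted p = 2.09e-06), and called lower after recentring, at -0.14 (adjusted p = 0.0032). So for LAMC1 and LAMB2 the direction rests on the scaling. LAMC3, a rare gamma chain, rose 2.61-fold at a low level, from 1.85 and 1.56 to 4.77 and 4.18 CPM (edgeR adjusted p = 5.77e-06), with no overlap. LAMB4 had 4 to 13 counts per library and was not tested.

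Divided by exon length, the levels show how the chains of each kind were composed; these shares are descriptions and were not tested. Of the summed level of the 4 beta chain genes (CPM per kb of exon), LAMB3 took 9.47% and 9.70% in the controls and 36.9% and 38.1% in the UHRF1 KO libraries. LAMB1 took 72.8% and 73.0% against 48.3% and 46.7%. The ratio of LAMB3 to LAMB1 per length was thus 0.130 and 0.133 in the controls and 0.764 and 0.817 in the UHRF1 KO libraries, so LAMB3 stayed below LAMB1 in all 4.

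The alpha chains did not shift in the same way. LAMA5 took 82.7% and 81.6% of the summed alpha chain level per length in the controls and 80.5% and 81.7% in the UHRF1 KO libraries, and LAMA4 went from 0.335% and 0.611% to 4.85% and 4.47%. The ratio of LAMA3 to LAMB3 per length was 1.08 and 1.12 in the controls and 0.239 and 0.222 in the UHRF1 KO libraries. On this measure these genes of laminin-332 were at about the same level in the controls, and LAMA3 was below LAMB3 in the UHRF1 KO libraries. The measure divides by all annotated exon bases, 14678 for LAMA3. The RefSeq start of LAMA3 used above lies 183577 bases inside the gene, and which of its transcripts were present was not analysed. A shorter transcript would put LAMA3 higher per length, and the share of LAMA5 lower, in every library.

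**Figure D3:**
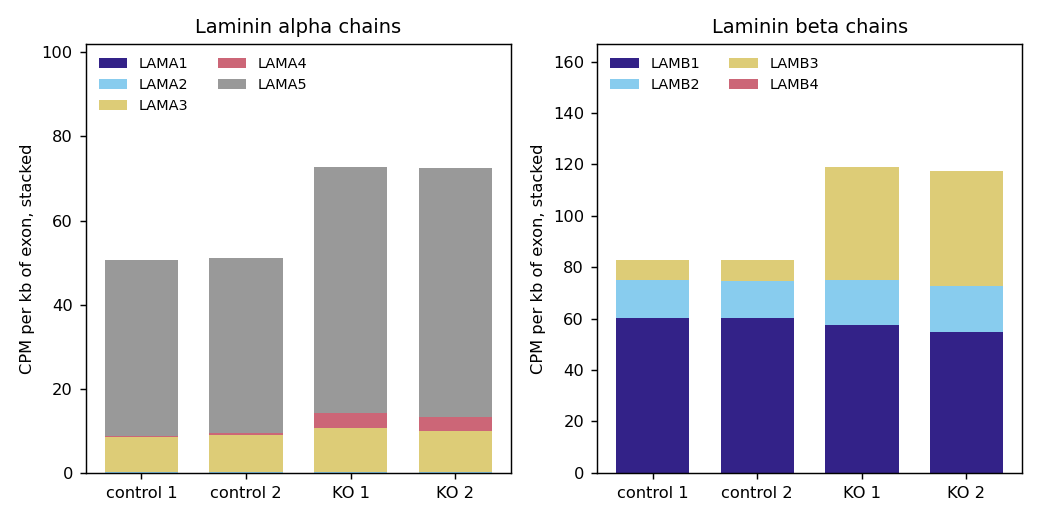
Level per exon length (CPM per kb, stacked bars from 0) of the laminin alpha and beta chain genes in each of the 4 libraries (KO stands for UHRF1 KO). The LAMB3 segment is small in both control bars and large in both UHRF1 KO bars, while LAMA5 fills most of the alpha chain bars in all 4 libraries.

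Among the laminin receptors, ITGB4 rose most, ITGA3 rose less and ITGA6 hardly moved. ITGB4 (ENSG00000132470, chromosome 17, 75721328 to 75757818) encodes the beta4 subunit of hemidesmosomes. It was at 192 and 186 CPM in the controls and at 499 and 506 CPM in the UHRF1 KO libraries. The 2.66-fold difference (log2 1.41, SE 0.04, edgeR adjusted p = 4.96e-26) was far wider than the gap between replicates. ITGA6 (ENSG00000091409), the only known alpha partner of ITGB4, was at 147 and 146 CPM against 167 and 163 CPM. That was 1.13-fold higher (edgeR adjusted p = 5.85e-04), and no longer called after recentring (log2 0.07, adjusted p = 0.112). The ratio of ITGA6 to ITGB4 per exon length was 0.791 and 0.812 in the controls and 0.346 and 0.334 in the UHRF1 KO libraries, so ITGB4 was above its partner in both groups and further above it in the UHRF1 KO libraries.

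ITGA3 (ENSG00000005884), the laminin-332 and laminin-511 receptor subunit that pairs with ITGB1, was at 824 and 803 CPM in the controls and at 1253 and 1288 CPM in the UHRF1 KO libraries. The groups did not overlap, and the rise was 1.56-fold (log2 0.64, SE 0.03, edgeR adjusted p = 3.92e-18). Per exon length it was the highest alpha gene in every library, with 45.8% and 43.6% of the summed alpha level in the controls and 41.2% and 42.6% in the UHRF1 KO libraries. ITGA7, a laminin receptor of muscle, was between 2.45 and 2.96 CPM in all 4 libraries and did not pass the test (edgeR adjusted p = 0.549). After recentring it was called lower (log2 -0.62, edgeR adjusted p = 0.0249).

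ITGB1 (ENSG00000150093), the common partner of most alpha subunits, was the most abundant of the 38 genes per exon length and showed no clear change. It was at 2009 and 2075 CPM in the controls and at 1987 and 1954 CPM in the UHRF1 KO libraries. The groups did not overlap, but the difference was small (log2 -0.05, SE 0.03, edgeR adjusted p = 0.143), and its sign rested on the processing. ITGB1 was called higher with GC and length trends removed (log2 0.18, edgeR adjusted p = 7.6e-08). With recentring as well it was called lower (log2 -0.12, edgeR adjusted p = 8.44e-05). The share of ITGB1 in the summed beta level per length was 80.7% and 81.5% in the controls and 70.9% and 70.7% in the UHRF1 KO libraries. Over the same libraries ITGB4 went from 6.87% and 6.49% to 15.8% and 16.3%.

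Of the 4 collagen-binding alpha genes, only ITGA2 passed the test. ITGA2 (ENSG00000164171, chromosome 5, 52989326 to 53094779), the collagen and laminin receptor of epithelia and platelets, was at 126 and 152 CPM in the controls and at 352 and 338 CPM in the UHRF1 KO libraries. It was 2.48-fold higher (log2 1.31, SE 0.07, edgeR adjusted p = 1.44e-07), with a wider gap between the controls than most abundant genes here. ITGA1 (ENSG00000213949), the other common collagen receptor, was at 18.5 and 18.7 CPM against 18.2 and 18.3 CPM (log2 -0.03, SE 0.09, edgeR adjusted p = 0.809). The PELO gene, with 985 to 1232 counts per library, lies on the same strand and shares 2.56% of the exon bases of ITGA1, so some ITGA1 counts may belong to it. ITGA10 and ITGA11, collagen receptors of cartilage and fibroblasts, had 15 to 38 counts per library and did not pass the test (edgeR adjusted p = 0.386 and 0.454).

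The receptors for the RGD motif of fibronectin and vitronectin were led by ITGA5. ITGA5 (ENSG00000161638, chromosome 12, 54395261 to 54419460), the alpha subunit of the fibronectin receptor, was at 85.0 and 80.5 CPM in the controls and at 302 and 294 CPM in the UHRF1 KO libraries. The 3.60-fold rise (log2 1.85, SE 0.04, edgeR adjusted p = 2.60e-27) was the largest among the integrin genes of at least 10 CPM. ITGAV (ENSG00000138448), which pairs with several beta subunits, was at 347 and 380 CPM against 521 and 507 CPM, 1.41-fold higher (log2 0.50, SE 0.04, edgeR adjusted p = 3.43e-13) and at 0.48 after recentring. Of the summed alpha level per length, ITGA5 went from 6.10% and 5.65% to 12.8% and 12.6%, and ITGA2 from 8.68% and 10.2% to 14.4% and 13.8%. ITGA2B, the platelet fibrinogen receptor subunit, rose 2.65-fold from 1.29 and 1.02 CPM to 3.13 and 3.02 CPM (edgeR adjusted p = 6.36e-05), and ITGA8 had a single count in the whole data set.

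**Figure D4:**
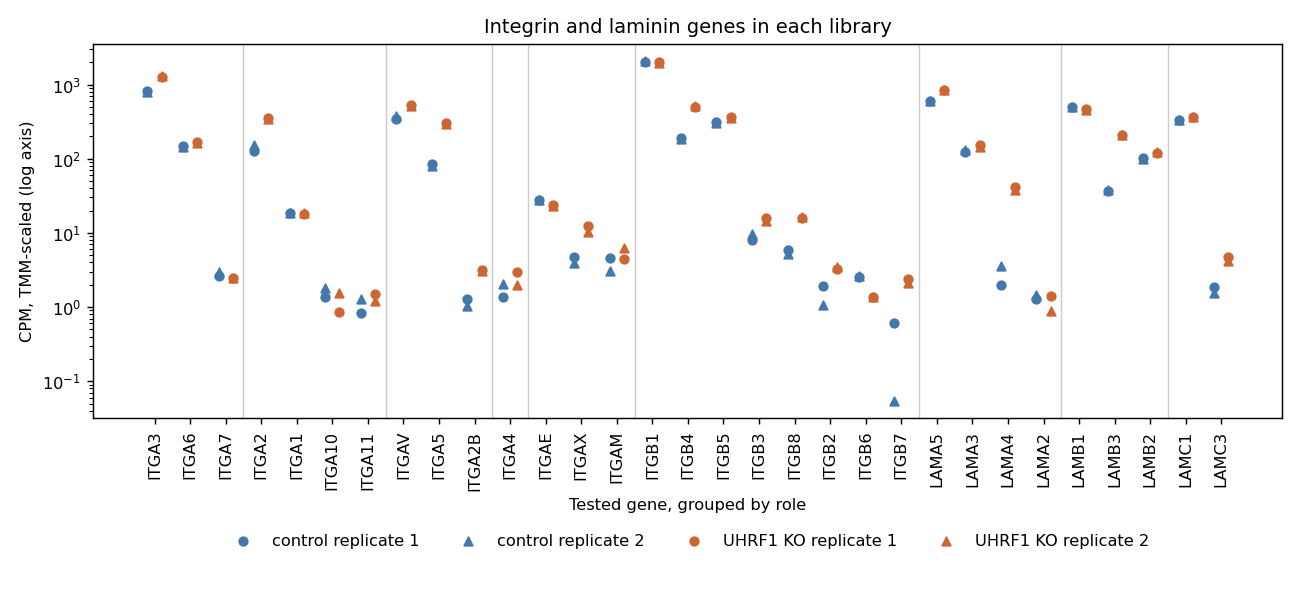
CPM after TMM scaling (log axis) of 31 tested genes in each library, grouped by role, with controls in blue, UHRF1 KO in orange, circles for replicate 1 and triangles for replicate 2. The paired symbols of LAMA4, LAMB3, ITGA5, ITGB4, ITGA2 and ITGB8 separate by group, while those of ITGB1, ITGA1 and LAMB1 lie side by side.

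The beta partners of ITGAV did not move alike. ITGB8 (ENSG00000105855), a receptor for latent TGF-beta, was at 5.83 and 5.17 CPM in the controls and at 15.9 and 16.3 CPM in the UHRF1 KO libraries, 2.93-fold higher (log2 1.55, SE 0.13, edgeR adjusted p = 2.14e-12). ITGB3 (ENSG00000259207), the vitronectin and fibrinogen receptor subunit, was at 8.08 and 9.65 CPM against 16.0 and 14.5 CPM, 1.71-fold higher (edgeR adjusted p = 1.19e-06). Neither pair of groups overlapped. Of the exon bases of ITGB3, 51.6% are shared with a protein-coding gene on the same strand that had 0 counts in every library. Its level may therefore depend on how reads in the shared part were counted. ITGB6 (ENSG00000115221), an epithelial receptor for latent TGF-beta, was the only one of the 38 genes at least 1.5-fold lower. It went from 2.52 and 2.64 to 1.35 and 1.37 CPM, 1.90-fold lower (log2 -0.92, SE 0.28, edgeR adjusted p = 0.00525), with 28 to 49 counts per library. DESeq2 did not call it (adjusted p = 0.0614), and 20.6% of its exon bases are shared with a processed transcript on the same strand that had 4 to 22 counts. ITGB5 (ENSG00000082781), a vitronectin receptor subunit, was at 311 and 306 CPM against 360 and 351 CPM, 1.15-fold higher (edgeR adjusted p = 8.04e-06) but called lower after recentring (log2 -0.13, adjusted p = 3.45e-04).

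The integrin genes named for leukocytes were at low levels, apart from ITGAE. ITGAX, the CD11c subunit, was at 4.65 and 3.93 CPM in the controls and at 12.5 and 10.4 CPM in the UHRF1 KO libraries, 2.65-fold higher (log2 1.41, SE 0.15, edgeR adjusted p = 1.26e-09). ITGB2, the common beta subunit of leukocyte integrins, went from 1.91 and 1.08 to 3.23 and 3.46 CPM, 2.25-fold higher (edgeR adjusted p = 4.03e-04). ITGAM, the CD11b subunit, lay between 3.02 and 6.15 CPM in the 4 libraries. Its groups overlapped, and its call (log2 0.50, edgeR adjusted p = 0.0341) was lost without control replicate 2 (adjusted p = 0.439), without UHRF1 KO replicate 2 (adjusted p = 0.457), with DESeq2 (adjusted p = 0.19), with limma-voom (adjusted p = 0.0577) and after recentring (log2 0.15, adjusted p = 0.519). ITGAE (ENSG00000083457), which pairs with ITGB7 and binds E-cadherin, was at 28.2 and 28.1 CPM against 23.9 and 22.8 CPM, 1.21-fold lower (log2 -0.27, edgeR adjusted p = 0.00409), but not called without UHRF1 KO replicate 2 (adjusted p = 0.0547) or with DESeq2 (adjusted p = 0.0513). After recentring it was -0.62 (adjusted p = 1.52e-09). HASPIN lies on the opposite strand within ITGAE and shares 6.41% of its exon bases, and whether the counting used strand is not stated.

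ITGB7 went from 11 and 1 counts in the controls to 50 and 52 counts in the UHRF1 KO libraries, 6.69-fold higher in the fit (log2 2.74, SE 0.47). It passed the filter on low counts only through the UHRF1 KO libraries, so it could not have been called lower, and its edgeR p-value is not given. It is still counted among the 22 higher genes, the 14 at least 1.5-fold higher and the 12 at least 2-fold higher. Of its exon bases, 42.1% are shared with ZNF740 on the opposite strand, which had 634 to 824 counts. The size of this change depends on the control libraries: the log2 change was 5.22 without control replicate 1 and 1.83 without control replicate 2. DESeq2 did not call it (adjusted p = 0.0593). ITGA4, the VLA-4 subunit, did not pass the test (log2 0.54, edgeR adjusted p = 0.107). With GC and length trends removed it did (log2 0.73, edgeR adjusted p = 0.0231), but not after recentring (edgeR adjusted p = 0.177). Its log2 change was 0.25 without control replicate 1 and 0.85 without control replicate 2. Without UHRF1 KO replicate 1 it was 0.23, and without UHRF1 KO replicate 2 it was 0.81. ITGAL, ITGAD and ITGA9 had at most 18 counts in any library and were not tested.

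Values for markers of other cell types stand beside these low-level genes; their part in the result was not tested. Of 15 leukocyte and platelet markers, 4 were tested and only CD14 passed the test, rising from 1.79 ± 0.07 to 5.36 ± 0.28 CPM (SD, n = 2 each; edgeR adjusted p = 1.55e-07). The summed level of the 15 was 12.5 and 8.95 CPM in the controls and 15.3 and 15.7 CPM in the UHRF1 KO libraries. PTPRC, the pan-leukocyte marker, had 0 counts in both controls and 10 and 20 counts in the UHRF1 KO libraries, and CD3E, MS4A1 and GP9 had 0 in all 4. Of 14 endothelial and fibroblast markers, 7 were tested, 5 rose and none fell. Of all genes tested, 32.0% were higher and 30.1% lower, which is the background for both marker lists. The summed level of the 14 was 8.97 and 11.4 CPM in the controls against 59.6 and 62.2 CPM in the UHRF1 KO libraries. PECAM1 alone went from 7 and 2 counts to 607 and 759. It passed the filter on low counts only through the UHRF1 KO libraries. A gene that passes in this way could not have been called lower, so its rise is no test of direction. The defining endothelial marker CDH5 had 0 and 0 counts against 3 and 0, and the fibroblast marker DCN 0 and 0 against 11 and 11. In bulk libraries, cells of another type and more RNA per cell of one type cannot be told apart.

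The other genes of cell adhesion were taken from lists of known partners. Over the 6 lists of partners, 150 genes in all, 130 were tested, 62 were higher, 38 lower and 30 not called, with a median log2 change of 0.17. Over all genes tested, 32.0% were higher and 30.1% lower, and these shares stand beside the counts of every list below. After recentring, 49 were higher and 57 lower, so the balance between the directions over these partners rests on the scaling.

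Of 25 basement membrane partners, 21 were tested, 11 rose and 5 fell, with a median log2 change of 0.55. COL7A1, the anchoring fibril collagen that binds laminin-332, went from 176 ± 4 to 560.0 ± 1.2 CPM (SD, n = 2 each; log2 1.67, edgeR adjusted p = 3.62e-28). FBLN1 (log2 1.66) and the network collagen gene COL4A1 (log2 1.36) rose too. COL18A1 (log2 -0.78), FRAS1 (log2 -0.77) and the perlecan gene HSPG2 (log2 -0.31) fell.

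Of 8 hemidesmosome genes, 7 were tested, 5 rose and 1 fell. COL17A1, the transmembrane collagen that binds ITGA6 and ITGB4, was at 1.51 and 1.56 CPM in the controls and at 8.87 and 8.81 CPM in the UHRF1 KO libraries (log2 2.52, edgeR adjusted p = 7.15e-13). CD9 (log2 0.65) rose, and KRT14, a basal keratin, went from 2 and 3 counts to 90 and 102. KRT14 passed the filter on low counts only through the UHRF1 KO libraries, so it could not have been called lower. PLEC, the plectin that links the beta4 tail to keratin, did not pass the test (log2 0.05, edgeR adjusted p = 0.167) and was chosen here for that role. DST, the other plakin of the list, fell (log2 -0.32, edgeR adjusted p = 0.00272).

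Of 32 soluble and matrix ligands of integrins, 25 were tested, 19 rose and 6 fell, with a median log2 change of 0.73. IGFBP1, which binds ITGA5 with ITGB1 (log2 2.47), the fibrinogen chain FGA (log2 2.39) and FBN1 (log2 1.49) rose. Fibronectin itself, FN1, went the other way from its receptor gene ITGA5: it was at 349 ± 20 CPM in the controls and at 214 ± 1 CPM in the UHRF1 KO libraries (SD, n = 2 each; log2 -0.70, edgeR adjusted p = 9.7e-17). THBS1 (log2 -1.75) and LTBP3 (log2 -0.54) fell as well.

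Of 13 cell surface ligands, 9 were tested, 6 rose and 1 fell. ICAM1, the ligand of ITGAL and ITGAM with ITGB2, was at 1.96 and 2.43 CPM in the controls and at 110.2 and 109 CPM in the UHRF1 KO libraries (log2 5.63, SE 0.10, edgeR adjusted p = 4.64e-31). ICAM2 had 2 and 1 counts against 101 and 123, and F11R rose by 0.88 on the log2 scale. ICAM2 passed the filter on low counts only through the UHRF1 KO libraries, so it could not have been called lower. CDH1, the E-cadherin ligand of ITGAE with ITGB7, fell (log2 -0.39, edgeR adjusted p = 1.79e-07).

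The adhesion plaque list had 49 genes, of which 47 were tested, 15 rose and 19 fell, with a median log2 change of -0.03. TNS4 (log2 1.22), PDLIM7 (log2 1.64) and the paxillin gene PXN (log2 0.79) rose, and TNS3 (log2 -1.12) and CAV1 (log2 -0.85) fell. The tensin genes did not share a direction: TNS1 rose (log2 1.62) and TNS2 fell (log2 -0.64), both named here as the other tensins of the list, TNS4 went from 190 ± 1 to 442 ± 10 CPM and TNS3 from 513 ± 4 to 236 ± 9 CPM (SD, n = 2 each; edgeR adjusted p = 4e-24 and 2.94e-23). Among 24 genes of laminin receptors that are not integrins and of the enzymes that glycosylate dystroglycan, 21 were tested, 6 rose and 6 fell. SDC4 (log2 1.86), SDC3 (log2 0.83) and POMGNT1 (log2 0.32) rose, and SGCD (log2 -1.62), SGCE (log2 -0.60) and RPSA (log2 -0.38) fell.

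Of the 10 epithelial markers, 3 rose, 6 fell and 1 did not pass the test, with a median log2 change of -0.36. CLDN4 (log2 2.99), MUC1 (log2 2.51) and EPCAM (log2 2.16) rose, and the keratins KRT18 (log2 -0.43), KRT7 (log2 -0.38) and KRT8 (log2 -0.34), which are far more abundant, fell. Beside the rises of LAMB3, ITGB4 and COL17A1, the epithelial markers thus did not share a direction.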

How the data were processed

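RNA-seq libraries of 4 A549 samples were compared, 2 per group. The authors deposited raw read counts for each gene, as whole numbers with no normalization. GRCh38 and FastQC 0.10.1 stand in the submitters' processing notes. The aligner, counting tool, annotation and use of strand: not given in the sources used here. All 58735 rows named a gene. Both control samples carry the same short name, so their columns were matched by the number in the title; this bears only on the names of left-out controls and on the block.

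Symbols, exons and positions came from GENCODE release 29. The members and lists were chosen with earlier results of these data known. Genes named with values in every library were members called with at least a 1.5-fold change or with a mean of at least 10 CPM, and of each list up to 3 called genes per direction by adjusted p.

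Counts were fitted in R 4.3.3 with edgeR 4.0.16 (filterByExpr, TMM, robust glmQLFit, glmQLFTest, two-sided, Benjamini-Hochberg over 17030 genes, threshold 0.05). The biological coefficient of variation was 3.16%. Each SE is the log2 change over the square root of F. Replicates differed by more than counting noise (chi-square per degree of freedom 2.65 for the controls and 1.85 for UHRF1 KO). At low counts, 3 counts correspond to 0.121 to 0.168 CPM, counting error only, without molecular identifiers. The steps were tested on simulated data. DESeq2 1.42.0, limma 3.58.1, other scalings and filters, single libraries left out, a replicate block, and GC and length trends were tried as alternatives. Integrin tail sequences are not printed here. One member and one listed gene are counted but not otherwise reported here.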

Additional observations from a re-analysis of the deposited data

How the results depend on the processing

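Under 15 alternatives, LAMA4, LAMB3, LAMC3, ITGA2, ITGA2B, ITGA3, ITGA5, ITGAX, ITGB2, ITGB3, ITGB4 and ITGB8 stayed higher and past the threshold in every one. With a minimum of 1.5-fold, 3609 genes were higher and 1420 lower, 14 integrins and laminins were higher and 1 lower, and 48 partner genes were higher and 13 lower. Recentring after removal of GC and length trends gave 3544 higher and 8221 lower genes, 7 lower integrins and laminins and a median of 0.20 for them; it turned ITGB5 (-0.13), LAMA3 (-0.014), LAMB2 (-0.14) and LAMC1 (-0.032) below 0, and the cause was not tested. Trend removal alone put ITGB1 at 0.18. DESeq2 left 20 higher members, losing ITGAM (adjusted p = 0.19) and ITGB7 (0.0593), and 1 lower member, losing ITGB6 (0.0614) and ITGAE (0.0513). Without the filter, which adds genes of few counts, the members' median was 0.63. Leaving out 1 library gave 1 to 4 lower members, the 1 being without UHRF1 KO replicate 2, and a median of 0.46 to 0.63. The replicate numbers did not pair the libraries: deviations of same-numbered libraries correlated at -0.01 over genes. With the replicate number as a block, 22 members were higher and 3 lower, with a median of 0.50. Depth limits the genes under about 100 counts per library, ITGA2B, ITGB2, ITGB6, ITGB7, ITGA4, ITGA7, ITGA10, ITGA11 and LAMA2 among them. Each group has 2 libraries of unstated origin.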

Other observations

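Some members are neighbours on a chromosome. ITGA1 and ITGA2 lie 30.1 kb apart on chromosome 5, with log2 changes of -0.03 and 1.31. ITGAM and ITGAX, 22.2 kb apart on chromosome 16, had 0.50 and 1.41. These are descriptions, and the difference within a pair was not tested.

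Of the genes that carry an integrin name but encode no subunit, ITGBL1, a secreted protein with repeats like those of the beta subunits, had 4 and 3 counts in the controls and 54 and 70 in the UHRF1 KO libraries. It passed the filter on low counts only through the UHRF1 KO libraries, so no test of it is given. ITGB3BP, a centromere protein, was 1.65-fold lower (edgeR adjusted p = 5.61e-08), and ITGB1BP1, which binds the beta1 tail, was 1.31-fold lower (edgeR adjusted p = 2.29e-08). LAMA5-AS1, antisense to LAMA5, had 27 and 10 counts against 70 and 67 (log2 1.56, edgeR adjusted p = 1.22e-04); LAMA5 had at least 10651 counts per library. These genes were picked by name, outside the rule for the members.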
